A study of Mus musculus with 33 samples.

Results

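The last interval of a tendon differentiation was examined, in which cultures held in the retinoic acid receptor gamma (RARγ) agonist CD1530 passed from 2.5 to 4 days of induction. The members are the 3 libraries taken at day 4 (D4) in CD1530 and the 3 taken at day 2.5 (D2.5) in CD1530, 6 of the 33 libraries of the series, grouped by the ligand and time in their labels, and all 17120 genes in the deposited count table were compared between them. Mouse embryonic stem cells from blastocysts carrying the ScxGFP reporter, which marks cells transcribing the tendon factor Scx, had been aggregated and brought to paraxial mesoderm (PM) with the BMP inhibitor LDN-193189 and the Wnt agonist CHIR, and, in the study's enhanced protocol, the RAR inverse agonist AGN 193109. Monolayers of these cells were then kept in serum-free medium with TGFβ1, the hedgehog agonist SAG and FGF2, components that all induction groups share. CD1530 was added to these in the 2 groups compared here, and AGN 193109 replaced it in the matching AGN groups at D2.5 and D4 (3 libraries each), which serve below to show where the interval differed. The labels call these samples monolayer cultures and name no sorting step, and feeder cells had been used to maintain the stem cells.

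Tendon cells are specified from the syndetome of the somites. Scx is switched on early by TGFβ and FGF signals, and Mkx and Egr1 act with it on the collagen genes. A young tendon then builds its matrix, mainly type I collagen fibrils whose width is set by small leucine-rich proteoglycans (SLRPs) such as decorin and fibromodulin, crosslinked by lysyl oxidases and joined by elastic fibres of elastin, fibrillins and fibulins. Retinoic acid signals through RAR and RXR receptors on DNA. It raises the levels of its own receptor Rarb and of its degrading enzyme Cyp26a1, and it opposes cartilage formation in skeletal mesenchyme.

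Values are CPM, a gene's counts per M counts of its library, on library sizes scaled by trimmed means (TMM), fold changes are log2 values of D4 minus D2.5 with their standard error, and a gene was called at a Benjamini-Hochberg adjusted p under 0.05. Library totals lay between 17.1 and 19 M counted reads at D2.5 and between 19.2 and 21.3 M at D4. Mitochondrially encoded transcripts took 0.802 to 0.835% of the counts at D2.5 and 1.06 to 1.17% at D4, and the 20 most counted genes of a library took 6.26 to 6.33% and 7.99 to 8.09%. The study prepared the replicates as biological ones. The labels give neither culture nor batch, so p-values measure the spread between these libraries only.

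Matrix genes rose together over these 1.5 days, as most did under AGN, while genes of DNA replication, mitosis, ribosomes and the pluripotent state fell. Of the 17120 genes, 9806 were called (57.3%), 4686 of them higher at D4 (27.4%) and 5120 lower (29.9%). These shares are to be held beside the counts within gene lists that follow. A change past 1.5-fold was called for 996 genes higher (5.82%) and 983 lower (5.74%), 11.6% in all. The libraries of the 2 days did not overlap for 65.3% of all genes, 31.2% higher and 34.1% lower, a share to hold beside the statements on overlap that follow. The median log2 fold change over all genes was -0.03. With libraries scaled by their totals alone, the called genes split into 3610 higher and 6520 lower, 35.6% higher in place of 47.8%, with a median of -0.13, so shifts of that size in either direction depend on the scaling. In the plot of change against level, genes with large changes lie at all levels above a few CPM, and Eln, Lox, Postn and Igfbp5 stand out among the abundant ones.

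**Figure D1:**
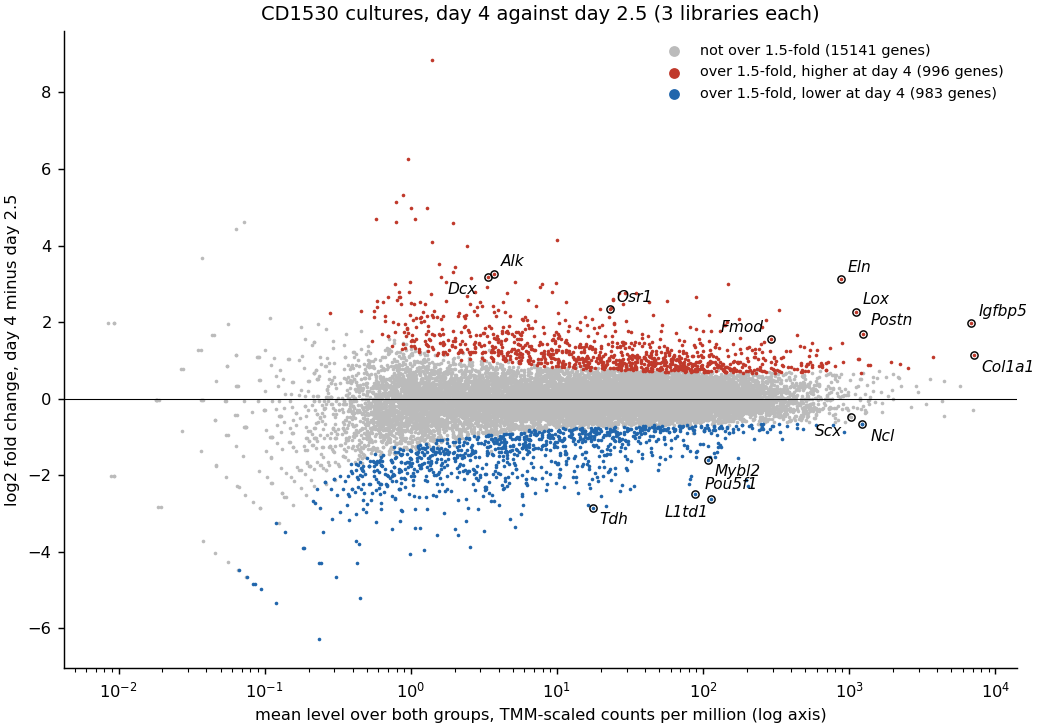
Log2 fold change from day 2.5 to day 4 in CD1530 (vertical) against the mean CPM of both groups (horizontal, log axis), 1 point a gene. The 996 genes past 1.5-fold higher are red, the 983 lower are blue and the others grey; Eln, Lox, Igfbp5 and Col1a1 lie above 1 on the vertical axis at high levels, and Pou5f1 and L1td1 lie below -2.

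Elastin rose furthest of the matrix genes listed. Eln (chr5:134702593-134747323 in GRCm38), which encodes the elastic fibre's core protein, was counted at 182, 179 and 184 CPM at day 2.5 and 1544, 1574 and 1596 CPM at day 4 (log2 fold change 3.11 ± 0.049, adjusted p = 1.42e-37). All 3 D4 libraries lay far above all 3 D2.5 libraries, and the gene had stood at 19.9 CPM (mean) at day 1.5 and 2.31 CPM in PM cells. Fbln5, which tethers elastin to cells, was at 56.4, 62.1 and 58.7 CPM at day 2.5 and 219.7, 225 and 225 CPM at day 4 (log2 fold change 1.92 ± 0.055, adjusted p = 1.65e-28). The microfibril genes moved less, with Fbn1 going from 614 ± 23.6 to 1189 ± 17.8 CPM (mean ± SD, n = 3; log2 fold change 0.95 ± 0.13) and Mfap4 from 140.4 ± 5.39 to 346 ± 6.69 CPM (1.30 ± 0.045). In the list of 18 elastic fibre genes, 16 rose and 1 fell, with a median of 0.87 against -0.03 over all genes. The one that fell, Fbln2 (-0.24), lost its call when D2.5 replicate 2, D4 replicate 1 or D4 replicate 3 was left out.

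Lysyl oxidase, the enzyme that crosslinks both elastin and collagen, also rose. Lox was at 390.2, 379.6 and 368 CPM at day 2.5 and 1842, 1837 and 1833 CPM at day 4 (log2 fold change 2.28 ± 0.11, adjusted p = 4.29e-15). No library of one day came near those of the other. Of its relatives, Loxl4 went from 15.2 ± 0.641 to 38.5 ± 1.15 CPM (log2 fold change 1.34 ± 0.091) and Loxl3 from 46.7 ± 1.58 to 106 ± 0.63 CPM (1.19 ± 0.061). The collagen prolyl hydroxylase subunits P4ha1 and P4ha2 rose by 1.11 ± 0.039 and 1.29 ± 0.077 on the log2 scale, and Serpinh1, the collagen chaperone, by 0.56 ± 0.029. Pcolce2, an enhancer of procollagen cleavage, was the 1 member of this list of 21 genes that fell (3.16 ± 0.212 to 1.15 ± 0.25 CPM, -1.46 ± 0.24), beside 18 that rose.

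The chains of type I collagen, the main fibre of tendon, more than doubled. Col1a1 (chr11:94936224-94953042) was at 4321, 4573 and 4539 CPM at day 2.5 and 9693, 10140 and 9521 CPM at day 4 (log2 fold change 1.13 ± 0.10, adjusted p = 7.1e-10), and the libraries of the 2 days did not overlap. Col1a2, the second chain, was at 2345, 2460 and 2417 CPM at day 2.5 and 5081, 5192 and 5054 CPM at day 4 (log2 fold change 1.09 ± 0.072, adjusted p = 2.26e-12). Among the other fibrillar collagens, Col5a2, which starts type I fibrils, changed by 0.88 ± 0.073 and Col3a1 by 0.52 ± 0.041, and Col22a1, a collagen of tissue junctions, by 1.13 ± 0.13 at a low level (5.67 ± 1.1 to 12.4 ± 1.14 CPM). In all, 9 of 11 fibrillar and fibril-associated collagens rose and 0 fell, with a median of 0.66; 1 fell when the 6 libraries were fitted alone.

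Most collagens of networks and beaded filaments rose too. Col8a2 and Col8a1, short-chain network collagens, rose by 1.81 ± 0.056 and 1.66 ± 0.041 on the log2 scale. Under AGN they rose by 3.25 and 1.72. The 3 chains of type VI collagen, which surrounds tendon cells, went up side by side, Col6a1 from 353 ± 7.12 to 845 ± 2.01 CPM (1.26 ± 0.077), Col6a2 from 257 ± 10.2 to 665 ± 5.61 CPM (1.37 ± 0.071) and Col6a3 from 369 ± 20.2 to 819 ± 8.71 CPM (1.15 ± 0.15). Basement membrane Col4a1 stood at 1804, 1865 and 1872 CPM at day 2.5 and 3235, 3232 and 3231 CPM at day 4 (log2 fold change 0.81 ± 0.067, adjusted p = 1.15e-10), again with no overlap. Of 10 genes in this list, 9 rose and 0 fell (median 1.13).

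SLRPs had the highest median of the matrix lists, at 1.45 over 10 genes, of which 9 rose and 1 fell (Epyc, -0.43, a call lost without D2.5 replicate 2 or D4 replicate 1). Fibromodulin (Fmod), which binds collagen fibrils and lysyl oxidase, was at 145, 147 and 148 CPM at day 2.5 and 434, 426 and 442 CPM at day 4 (log2 fold change 1.56 ± 0.061, adjusted p = 7.88e-20). Decorin (Dcn) was at 423, 423 and 411 CPM at day 2.5 and 1045, 1060 and 1057 CPM at day 4 (log2 fold change 1.33 ± 0.051, adjusted p = 4.98e-22), and the 2 days did not overlap for either gene. Osteoglycin (Ogn) went from 57.8 ± 1.24 to 219 ± 3.31 CPM (1.92 ± 0.052) and biglycan (Bgn) from 833 ± 15.1 to 1296 ± 17 CPM (0.64 ± 0.051). Podocan (Podn), 1.77 CPM at D2.5 and 14.1 at D4 in the mean, was among the 12 largest rises of all genes that passed the count and overlap criteria (2.98 ± 0.16).

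Periostin (Postn), a matrix protein of tendon and periosteum that promotes collagen crosslinking, was at 597, 608 and 583 CPM at day 2.5 and 1897, 1886 and 1937 CPM at day 4 (log2 fold change 1.68 ± 0.085, adjusted p = 1.71e-14). Its 3 D4 values lay within a narrow band above all D2.5 values, and under AGN Postn rose further, by 2.66. Sparc, a collagen-binding glycoprotein, went from 1550 ± 26.9 to 2884 ± 31.3 CPM (0.90 ± 0.039) and Thbs1, which activates latent TGFβ, from 487 ± 12 to 940.5 ± 5.51 CPM (0.95 ± 0.061). The level of fibronectin (Fn1), the highest of this list in CPM, was 4963, 5039 and 5206 CPM at day 2.5 and 6537, 6263 and 6273 CPM at day 4, and its difference did not pass the threshold (log2 fold change 0.33 ± 0.14, adjusted p = 0.053). Among 21 matricellular and adhesive genes, 14 rose and 0 fell, and 2 fell when totals alone set the scale. Of 16 matrix proteases and inhibitors, 11 rose, among them Timp3 (1.31 ± 0.10) and the collagenolytic Mmp2 (0.86 ± 0.052), and Mmp9 fell (163 ± 3.16 to 84.7 ± 3.16 CPM, -0.94 ± 0.037). The matrix lists also rose under AGN. AGN and CD1530 medians were 0.87 and 0.66 for fibrillar collagens, 0.81 and 0.55 for matricellular genes and 0.92 and 0.87 for elastic fibre. They were 0.79 and 0.67 for crosslinking. The AGN median was lower for network collagens (0.89 and 1.13), SLRPs (1.17 and 1.45) and proteases (0.58 and 0.60). The change was more negative in CD1530 for 13 of 21 matricellular genes and 11 of 18 elastic fibre genes. It was more positive for 1 and 4 of them. Over all genes 14.1% were more negative and 12.7% more positive.

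Igfbp5, which binds insulin-like growth factors and matrix, gained more CPM than any other called gene, a quantity that also grows with transcript length. It was counted at 2739, 2855 and 2808 CPM at day 2.5 and 11010, 10640 and 11150 CPM at day 4 (log2 fold change 1.97 ± 0.087, adjusted p = 1.32e-15). The D4 libraries stood far above the D2.5 libraries, and the mean in PM cells had been 37.8. Igfbp6 rose by 1.93 ± 0.13, Igfbp3 by 0.87 ± 0.051, Igfbp4 by 0.76 ± 0.033 and the growth factor Igf2 by 0.90 ± 0.13 on the log2 scale. In the IGF list, 13 of 16 genes rose and 0 fell.

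**Figure D2:**
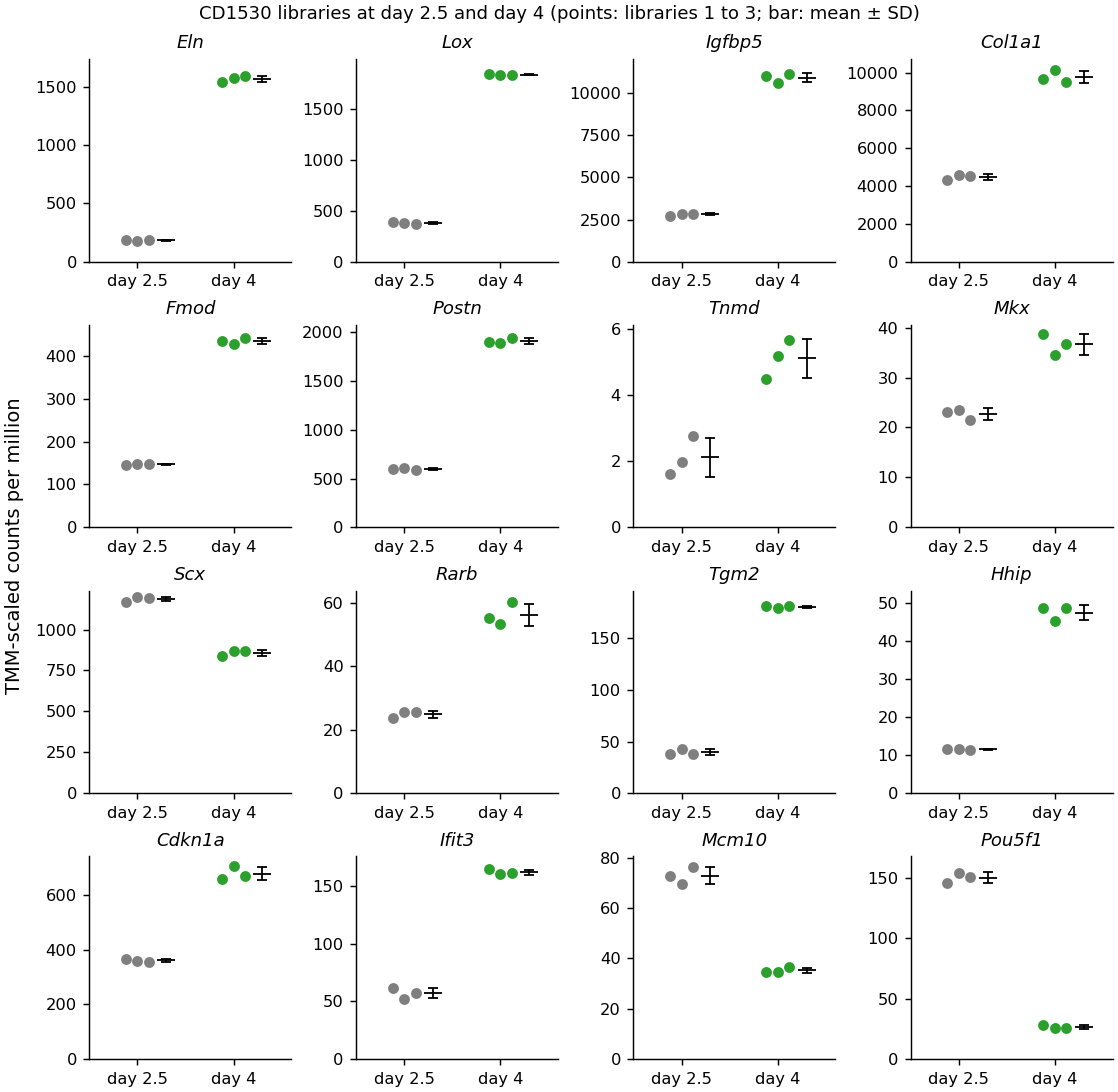
TMM-scaled CPM of 16 genes in each of the 3 libraries of day 2.5 (grey) and day 4 (green), with the mean and SD beside them and every axis starting at 0. For all 16 genes the points of the days do not overlap: Scx, Mcm10 and Pou5f1 are lower at day 4 and the other 13 genes higher.

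The regulators of the tendon lineage did not move in 1 direction. Scx (chr15:76457452-76459458), the gene that the reporter follows, was at 1171, 1199 and 1190 CPM at day 2.5 and 838, 866 and 869 CPM at day 4 (log2 fold change -0.47 ± 0.039, adjusted p = 1.09e-13). All D4 libraries were below all D2.5 libraries. Its CD1530 means had climbed from 6.41 CPM in PM to 446 at day 0.75 and 766 at day 1.5, so D2.5 held the highest of the sampled means.

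Mkx, a homeobox factor needed for mature collagen fibrils, was at 23.2, 23.5 and 21.4 CPM at day 2.5 and 38.7, 34.5 and 36.8 CPM at day 4 (log2 fold change 0.69 ± 0.088, adjusted p = 9.1e-09). Tnmd, a membrane protein of differentiated tendon cells, was at 1.62, 1.97 and 2.77 CPM at day 2.5 and 4.5, 5.17 and 5.68 CPM at day 4 (log2 fold change 1.27 ± 0.23, adjusted p = 8.04e-06). Neither gene's libraries overlapped between days, but Tnmd remained at a few CPM. Egr1, a zinc finger factor that responds to tension and growth factors, was at 72.2, 72.4 and 75.8 CPM at day 2.5 and 185, 184 and 182 CPM at day 4 (log2 fold change 1.32 ± 0.051, adjusted p = 5.38e-24). Under AGN, Mkx, Tnmd and Egr1 changed by 1.19, 1.19 and 0.21. The difference in change (CD1530 minus AGN, edgeR test) was -0.50 for Mkx (adjusted p = 0.0022) and 1.11 for Egr1 (adjusted p = 1.02e-15). For Tnmd it was not called. Of the 12 tendon genes tested, 8 rose and 2 fell, the second being Six2 (2.88 ± 0.189 to 1.68 ± 0.689 CPM, -0.78 ± 0.23), against 27.4% and 29.9% of all genes.

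In the time courses, the means of Eln and Fmod gained more CPM per day in this interval of the CD1530 series than in any earlier one, whereas Scx turned down. Col1a1 had gained faster from PM (1253 CPM) to day 0.25 (2550 CPM) and again gained after day 2.5.

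**Figure D3:**
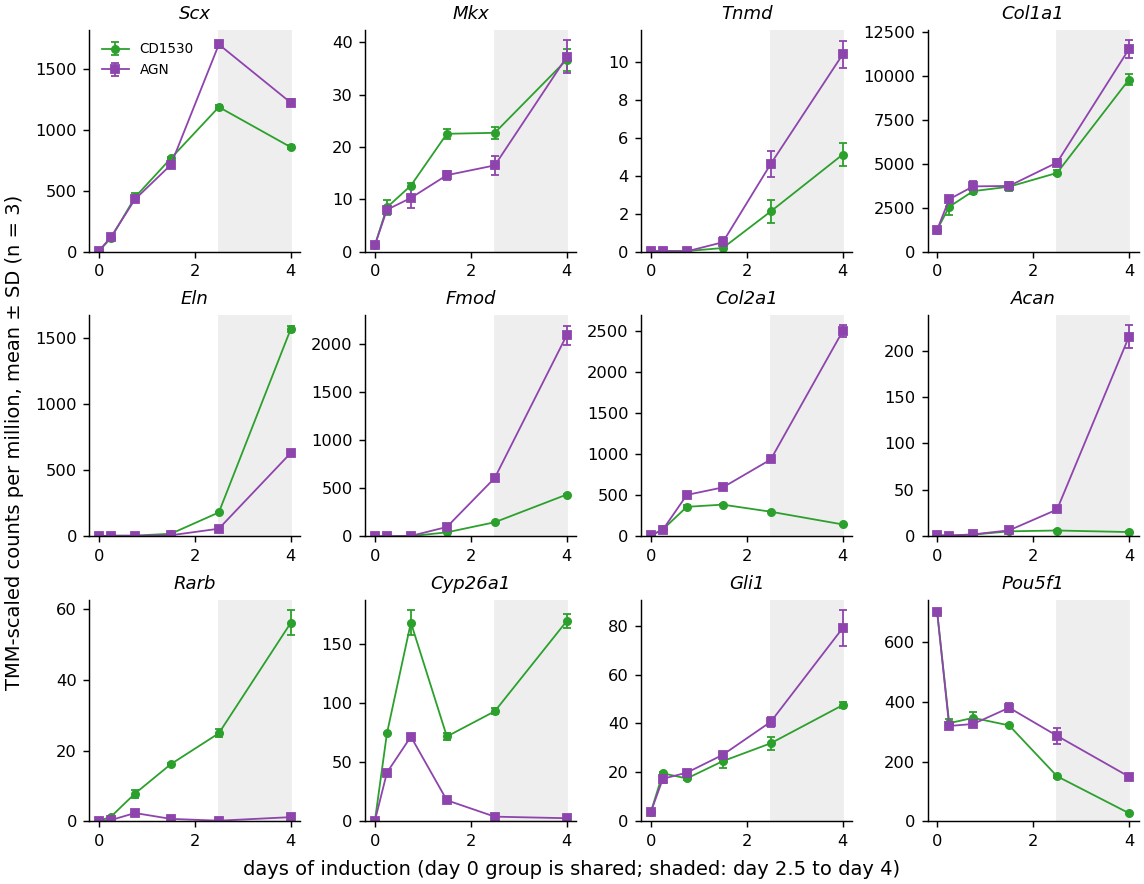
Mean ± SD (n = 3) of TMM-scaled CPM of 12 genes against days of induction, CD1530 in green circles and AGN 193109 in purple squares, with the PM group at day 0 shared and the interval from day 2.5 to day 4 shaded. Scx falls under both ligands in the shaded interval, Col2a1 and Acan fall in CD1530 and rise in AGN 193109, and Rarb and Cyp26a1 are high in CD1530 alone at day 4.

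More cartilage genes fell than rose by D4. Col2a1, the main collagen of cartilage, was at 289.9, 304 and 307 CPM at day 2.5 and 141, 146 and 149.7 CPM at day 4 (log2 fold change -1.05 ± 0.044, adjusted p = 8.1e-23). Col9a1, which coats type II fibrils, was at 33.1, 34 and 34.2 CPM at day 2.5 and 12.1, 12.1 and 13.2 CPM at day 4 (log2 fold change -1.44 ± 0.065, adjusted p = 6.25e-22). Every D4 library was below every D2.5 library for both genes. Acan, the large cartilage proteoglycan, was scarce throughout, at 5.92, 6.01 and 7.08 CPM at day 2.5 and 3.99, 5.34 and 4.67 CPM at day 4 (log2 fold change -0.44 ± 0.13, adjusted p = 0.0035), and the chondrogenic factor Sox9 changed little (77.5 ± 1.43 to 69 ± 1.94 CPM, -0.17 ± 0.051). Of 17 cartilage genes, 9 fell (52.9%) and 4 rose (23.5%), beside 29.9% and 27.4% of all genes, with a median of -0.17. Their summed mean level still went up, from 767.5 to 870.7 CPM. Col11a1, a fibril collagen also used outside cartilage, was one of those that rose (219 ± 5.25 to 518 ± 3.64 CPM, 1.24 ± 0.05), and Comp, shared by cartilage and tendon, another (0.688 ± 0.0962 to 2.21 ± 0.471 CPM, 1.67 ± 0.28), as did Matn3, a cartilage matrix protein (0.68). Cnmd, the remaining one, had 0 counts in every D2.5 library and 2 to 3 at D4, so no fold is given.

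In the same interval under AGN 193109 all 17 cartilage genes rose. The difference between the ligands' changes (CD1530 minus AGN) was -2.46 ± 0.061, adjusted p = 1.8e-29 for Col2a1, whose AGN mean went from 936 to 2497 CPM. For Acan it was -3.34 ± 0.15, adjusted p = 6.28e-21, with AGN means of 28.9 to 215 CPM. Across all genes, 4591 differed in this way (26.8%), 2181 with a change more positive in CD1530 (12.7%) and 2410 more negative (14.1%). In the cartilage list 15 of 17 genes were more negative and 0 more positive. For the tendon list the counts were 5 and 2, and for Scx, which fell under both ligands, no difference was called (0.01 ± 0.054, adjusted p = 0.94), its mean in AGN going from 1701 to 1223 CPM.

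**Figure D4:**
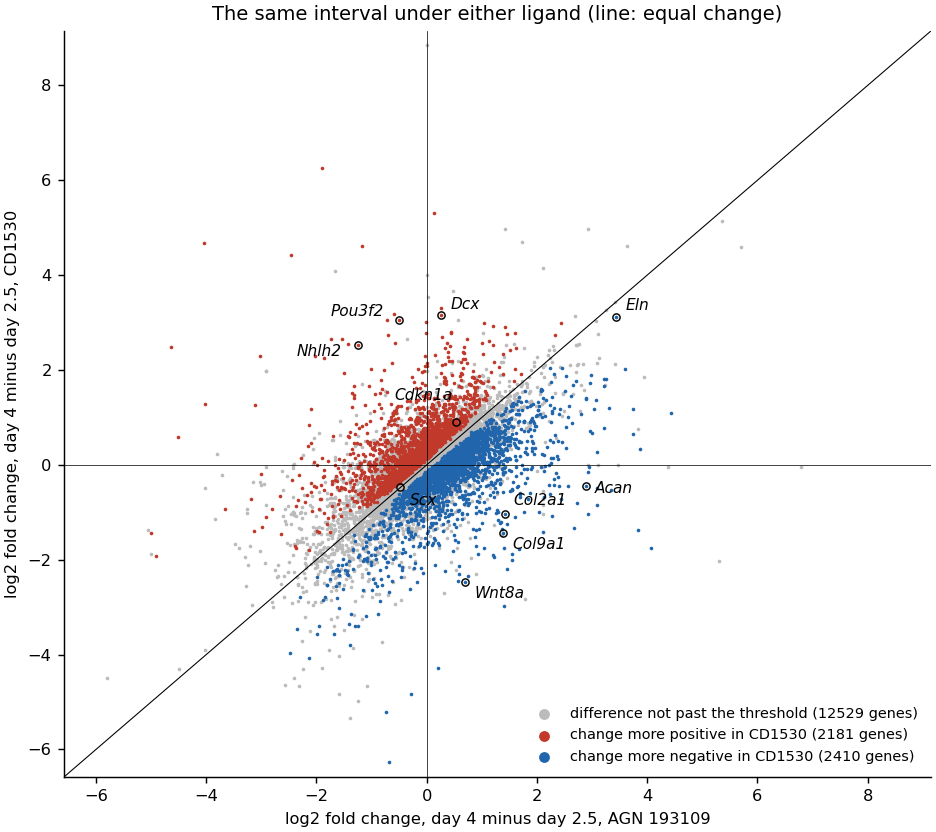
Log2 fold change from day 2.5 to day 4 in CD1530 (vertical) against the same in AGN 193109 (horizontal), 1 point a gene, with the line of equal change. The 2181 genes with a change more positive in CD1530 are red and the 2410 more negative are blue; Acan, Col2a1 and Col9a1 lie to the lower right, Pou3f2, Dcx and Nhlh2 to the upper left, and Eln and Scx near the line.

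Genes of retinoid response and metabolism were still changing after day 2.5. Rarb, the receptor gene that retinoic acid itself raises, was at 23.6, 25.5 and 25.6 CPM at day 2.5 and 55.1, 53.3 and 60.2 CPM at day 4 (log2 fold change 1.17 ± 0.086, adjusted p = 3.64e-15). Cyp26a1, the enzyme that clears retinoic acid, was at 90.5, 92.6 and 95.6 CPM at day 2.5 and 163, 175 and 169.8 CPM at day 4 (log2 fold change 0.86 ± 0.047, adjusted p = 3.11e-19). D4 exceeded D2.5 in every library for both. Rarb had climbed at each sampled time from 1.26 CPM at day 0.25, while Cyp26a1 had stood at 168 CPM at day 0.75 and 71.6 at day 1.5. The transglutaminase Tgm2, a classic retinoid target, rose from 39.4 ± 2.86 to 180.4 ± 1.26 CPM (log2 fold change 2.19 ± 0.055, adjusted p = 3.49e-30).

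Genes of retinoid supply moved in both directions. Aldh1a2, which makes retinoic acid, fell from 8.18 to 4.87 CPM in the mean (-0.74), and the retinol carrier Rbp4 was not called (-0.26). Stra6, the receptor for retinol uptake, was at 132, 141 and 143 CPM at day 2.5 and 384, 383 and 384 CPM at day 4 (log2 fold change 1.47 ± 0.058, adjusted p = 4.54e-23). Aldh1a3, a relative of Aldh1a2, went from 88.9 ± 2.02 to 268 ± 6.34 CPM (1.59 ± 0.046), and Rdh10, which acts before it, from 34.3 ± 1.03 to 71.8 ± 1.29 CPM (1.07 ± 0.059). The meiotic gatekeeper Stra8, also retinoid-driven, was lower at D4, at 229.5, 227 and 236 CPM at day 2.5 and 200.1, 200.2 and 202 CPM at day 4 (log2 fold change -0.20 ± 0.054, adjusted p = 0.0016), with 52.2 CPM at day 1.5. Hoxb1, an early retinoid target of the anterior Hox clusters, fell by 0.63 on the log2 scale. In all, 14 of 24 retinoid genes rose (58.3%) and 5 fell (20.8%), beside 27.4% and 29.9% of all genes. Beside 12.7% and 14.1% of all genes, the change was more positive than in AGN for 6 and more negative for 9. Rarb was among the latter (-1.86 ± 0.44, adjusted p = 0.0012), its AGN mean going from 0.124 to 1.12 CPM, so that the fold in AGN rests on few counts.

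SAG stimulates the hedgehog pathway in all induction groups. Hhip, a ligand trap and pathway target, was at 11.6, 11.7 and 11.4 CPM at day 2.5 and 48.7, 45.3 and 48.7 CPM at day 4 (log2 fold change 2.04 ± 0.10, adjusted p = 3.95e-21), and no D4 library overlapped a D2.5 library. Gli1, the target most often used as a readout, was at 28.8, 33 and 33.8 CPM at day 2.5 and 48.2, 46 and 48.2 CPM at day 4 (log2 fold change 0.58 ± 0.071, adjusted p = 5.05e-09). Ptch1, the receptor and also a target, changed by 0.20 ± 0.076, a call lost under 5 of 16 alternatives. Of 15 hedgehog genes 10 rose (66.7%) and 1 fell (6.67%), beside 27.4% and 29.9% of all genes.

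TGFβ pathway genes shifted by less than a log2 unit. Pmepa1, a feedback inhibitor, went from 308 ± 12.1 to 530.4 ± 11.1 CPM (0.78 ± 0.045), the ligand Tgfb3 from 121 ± 2.5 to 202 ± 1.89 CPM (0.75 ± 0.05) and the receptor Tgfbr2 from 184 ± 2.17 to 309 ± 4.3 CPM (0.74 ± 0.055). Of 19 genes, 11 rose (57.9%) and 3 fell (15.8%), beside 27.4% and 29.9% of all genes. Only 1 fell with DESeq2 size factors, or without D2.5 replicate 2 or D4 replicate 3. Among BMP and GDF genes, 12 of 24 rose and 6 fell, the latter a share near the 29.9% of all genes. Gdf10 had the largest change of them, at 7.65, 7.4 and 7.43 CPM at day 2.5 and 53.2, 50.9 and 48.7 CPM at day 4 (log2 fold change 2.76 ± 0.13, adjusted p = 2.23e-19), its days well apart. Gdf5, a joint and tendon ligand, stayed below 2 CPM (0.325 ± 0.245 to 1.77 ± 0.0395 CPM, 2.46 ± 0.42), and Bmp7 rose by 1.48 ± 0.068.

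Of 25 FGF genes 6 rose and 11 fell, beside 27.4% and 29.9% of all genes. Fgf18, a ligand of skeletal growth, rose from 11.4 ± 0.373 to 38.9 ± 0.341 CPM (1.77 ± 0.11), whereas the receptor Fgfr1 fell from 464 ± 14.6 to 409 ± 5.36 CPM (-0.18 ± 0.034). Fgf4, a ligand of early embryonic cells that is not in this list, was among the 12 largest falls of all, at 41.3, 34.4 and 38.4 CPM at day 2.5 and 5.66, 5.06 and 5.57 CPM at day 4 (log2 fold change -2.81 ± 0.077, adjusted p = 5.03e-29). In the Wnt list 22 of 39 rose (56.4%) and 9 fell (23.1%, below the 29.9% of all genes). Wnt9a, a joint and tendon-attachment ligand, was at 16.4, 16.1 and 16.7 CPM at day 2.5 and 73.8, 71.9 and 76.5 CPM at day 4 (log2 fold change 2.18 ± 0.082, adjusted p = 1.66e-24), and Wnt4 went from 6.59 ± 0.504 to 28.1 ± 1.85 CPM (2.09 ± 0.12). The secreted inhibitors Dkk2 and Dkk3 rose by 1.48 ± 0.086 and 1.23 ± 0.045 and the Wnt deacylase Notum fell (6.34 ± 0.53 to 2.22 ± 0.195 CPM, -1.51 ± 0.15).

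Transcription factors of connective tissue changed by up to several fold. Osr1, a factor of irregular connective tissue, was at 7.82, 7.66 and 7.25 CPM at day 2.5 and 37.3, 36.5 and 41.2 CPM at day 4 (log2 fold change 2.34 ± 0.13, adjusted p = 8.77e-19), the days being far apart. Of the nuclear factor I family, Nfix went from 65.5 ± 3.68 to 159 ± 4.86 CPM (1.28 ± 0.078), Nfia from 43 ± 2.76 to 93.6 ± 4.2 CPM (1.12 ± 0.058) and Nfib from 49.9 ± 1.51 to 90.8 ± 0.886 CPM (0.86 ± 0.061). Foxc1, of somite and mesenchyme, rose by 0.81 ± 0.051. Of 34 connective tissue factors 16 rose and 3 fell, a count that became 13 and 7 when totals alone set the scale. The somite and sclerotome list had 5 higher (26.3%, near the 27.4% of all genes) and 10 lower (52.6%) of 19, with T, the mesoderm factor, and Uncx, of the posterior somite, falling at levels under 5 CPM (-2.02 ± 0.24 and -1.94 ± 0.22). Pax1, the sclerotome factor, changed by -0.28 ± 0.12, and its call was lost under 6 of 16 alternatives.

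Genes of cell division fell almost without exception. Mcm10, which loads the replication polymerase, was at 72.7, 69.8 and 76.4 CPM at day 2.5 and 34.8, 34.7 and 36.5 CPM at day 4 (log2 fold change -1.05 ± 0.05, adjusted p = 6.42e-21), and Mybl2, a regulator of cell cycle genes, at 162, 158 and 166 CPM at day 2.5 and 53.2, 55.8 and 51.7 CPM at day 4 (log2 fold change -1.60 ± 0.04, adjusted p = 3.06e-30). The D4 libraries were all below the D2.5 libraries. Of 37 DNA replication genes 36 fell and 0 rose (median -0.60), and of 31 mitosis genes 30 fell and 0 rose (median -0.44), against 29.9% lower over all genes. Mki67, the usual mark of cycling cells, was the mitosis gene that was not called, at 274, 286 and 289 CPM at day 2.5 and 244, 220.1 and 237 CPM at day 4 (log2 fold change -0.28 ± 0.14, adjusted p = 0.1). Fewer cycling cells and less of these transcripts per cell cannot be told apart in bulk libraries, which holds for every list here.

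For 27 of the 31 mitosis genes the change was more negative in CD1530 than in AGN 193109, where 13 fell and 4 rose. Over all genes 14.1% were more negative, and in AGN 29.5% fell and 29.9% rose. Top2a, which untangles chromosomes, went from 681 ± 10.2 to 479 ± 7.82 CPM in CD1530, and the difference between the ligands' changes was -0.40 ± 0.065, adjusted p = 8.45e-06. In the replication list 6 of 37 genes were more negative and 4 more positive, 10 in all, beside 26.8% of all genes.

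Several inhibitors of the cycle rose, while Cdkn1b (-0.02) and Cdkn2d (0.12) were not called. Cdkn1a, which encodes p21, was at 368, 361 and 357 CPM at day 2.5 and 662, 708 and 670.0 CPM at day 4 (log2 fold change 0.91 ± 0.045, adjusted p = 1.08e-20). Cdkn1c (p57) went from 106 ± 4.19 to 198 ± 1.26 CPM (0.89 ± 0.064) and Cdkn2a, whose transcripts encode p16 and p19ARF and were counted together, from 132 ± 2.35 to 245 ± 8.69 CPM (0.90 ± 0.063). Cyclins D1 and D2 rose as well, Ccnd1 from 184 ± 4.9 to 310.0 ± 7.5 CPM (0.76 ± 0.046) and Ccnd2 from 364 ± 6.38 to 654 ± 13.4 CPM (0.84 ± 0.055), while their partner Cdk4 fell (-0.22 ± 0.037). Of 17 genes known as p53 targets 16 rose and 1 fell, with a median of 0.62. Ccng1 was at 376, 364 and 358 CPM at day 2.5 and 722, 713 and 708 CPM at day 4 (log2 fold change 0.96 ± 0.032, adjusted p = 2.27e-26), and Perp, a junction protein tied to apoptosis, rose from 21.1 ± 1.63 to 57.7 ± 1.15 CPM (1.45 ± 0.066). For 13 of the 17 the change was more positive in CD1530 than in AGN 193109 (12.7% of all genes), for example 0.55 ± 0.045, adjusted p = 1.17e-12 for Ccng1.

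Ribosomal protein genes fell slightly and together, 69 of 83 lower and 1 higher, with a median of -0.26. Their share of the counts was 2.32 to 2.36% at D2.5 and 1.82 to 1.89% at D4. Of the 10 largest losses in CPM, Eef1a1, Eef2, Ncl and Npm1 serve translation and the nucleolus and Hsp90ab1, Hsp90aa1 and Hspa8 are chaperones. Ncl was at 1517, 1478 and 1521 CPM at day 2.5 and 937, 953 and 949 CPM at day 4 (log2 fold change -0.67 ± 0.027, adjusted p = 2.25e-23) and Hsp90aa1 at 1216, 1161 and 1180 CPM at day 2.5 and 646, 657 and 659.6 CPM at day 4 (log2 fold change -0.86 ± 0.028, adjusted p = 2.06e-26). Each of these had all D4 libraries below all D2.5 libraries. All 19 mitochondrially encoded genes rose, by a median of 0.57, among them mt-Co1 at 3725, 3728 and 3864 CPM at day 2.5 and 5399, 5277 and 4843 CPM at day 4 (log2 fold change 0.46 ± 0.11, adjusted p = 0.0016). Their median in AGN was -0.006, and for 13 of the 19 the change was more positive in CD1530 (12.7% of all genes). Their share of the counts had been 1.08, 1.39 and 1.62% in the PM libraries. Most nuclear genes of oxidative phosphorylation, 60 of 82, were not called. Of the others 7 were higher (8.54%) and 15 lower (18.3%), below the 27.4% and 29.9% of all genes. With totals alone setting the scale the counts were 1 and 29.

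Genes of the pluripotent state mostly fell, and whether cells left that state or such cells became fewer was not tested. Pou5f1, which encodes Oct4, was at 146, 155 and 151 CPM at day 2.5 and 28.4, 26 and 25.5 CPM at day 4 (log2 fold change -2.50 ± 0.055, adjusted p = 3.71e-32), after 701 CPM in PM. L1td1, an RNA-binding protein of stem cells, was at 195, 190.3 and 203 CPM at day 2.5 and 31.7, 31.9 and 32.1 CPM at day 4 (log2 fold change -2.62 ± 0.039, adjusted p = 3.75e-38). For both genes each D4 library held less than any D2.5 library by several fold. Of 16 pluripotency genes 15 fell and 1 rose (median -1.53). The riser was Klf4 (0.17), also a factor of differentiated cells, and its call was lost without D2.5 replicate 2 and with totals alone. Among those that fell were Utf1 from 132 ± 3.4 to 28.3 ± 0.872 CPM (-2.22 ± 0.057) and Dppa5a from 322 ± 6.8 to 74.4 ± 3.81 CPM (-2.11 ± 0.067). Tdh, the threonine dehydrogenase of mouse stem cells, was another of the 12 largest falls (30.9 ± 2.02 to 4.25 ± 0.134 CPM, -2.86 ± 0.085), as was Nr0b1, a nuclear receptor of the same cells (-2.78 ± 0.10). In 10 of the 16 genes the change was more negative than in AGN 193109 (14.1% of all genes), with -1.56 ± 0.072, adjusted p = 3.01e-20 for Pou5f1. Members of the Zscan4 and Usp17l families fell in 12 of 13 cases, but their near-identical copies share reads, and the values of single members are uncertain.

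Interferon-responsive and antigen-presentation genes rose in 22 of 26 cases and fell in 1, with a median of 0.68. Ifit3, an antiviral effector, was at 61.3, 52.5 and 57.7 CPM at day 2.5 and 165, 160.5 and 161 CPM at day 4 (log2 fold change 1.50 ± 0.048, adjusted p = 8.64e-27). Irf7, the factor that amplifies the response, went from 70.3 ± 2.13 to 156 ± 3.32 CPM (1.15 ± 0.05), and Tap1, the peptide transporter of MHC class I, from 59.3 ± 1.8 to 140.5 ± 6.14 CPM (1.24 ± 0.051). Ifitm1, a membrane protein also used as a mark of early mesoderm and germ cells, was the member that fell (24.5 ± 1.29 to 7.93 ± 0.616 CPM, -1.63 ± 0.093). Under AGN 193109 23 of the 26 rose. The difference between the ligands was more positive for 7 and more negative for 12, beside 12.7% and 14.1% of all genes.

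Most genes of the actin cytoskeleton and targets of YAP and TEAD, which respond to tension, also rose. Ccn1, a secreted YAP target, was at 153, 156 and 159.9 CPM at day 2.5 and 324, 314 and 322 CPM at day 4 (log2 fold change 1.03 ± 0.039, adjusted p = 2.55e-24), and Ccn2 (connective tissue growth factor) went from 177 ± 3.41 to 313 ± 3.35 CPM (0.82 ± 0.053). Of the YAP and TEAD list 13 of 18 rose and 4 fell, and of 27 contractile genes 19 rose and 4 fell, among the former the smooth muscle actin Actg2 (25.9 ± 1.11 to 76.3 ± 2.85 CPM, 1.56 ± 0.076). In the list of cadherins and integrins, which hold cells to each other and to matrix, 17 of 28 rose and 2 fell. The integrin chain Itgb5 went from 316 ± 9.8 to 765 ± 16.2 CPM (1.28 ± 0.041) and the collagen receptor chain Itga10 from 1.52 ± 0.236 to 7.31 ± 0.771 CPM (2.25 ± 0.20).

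**Figure D5:**
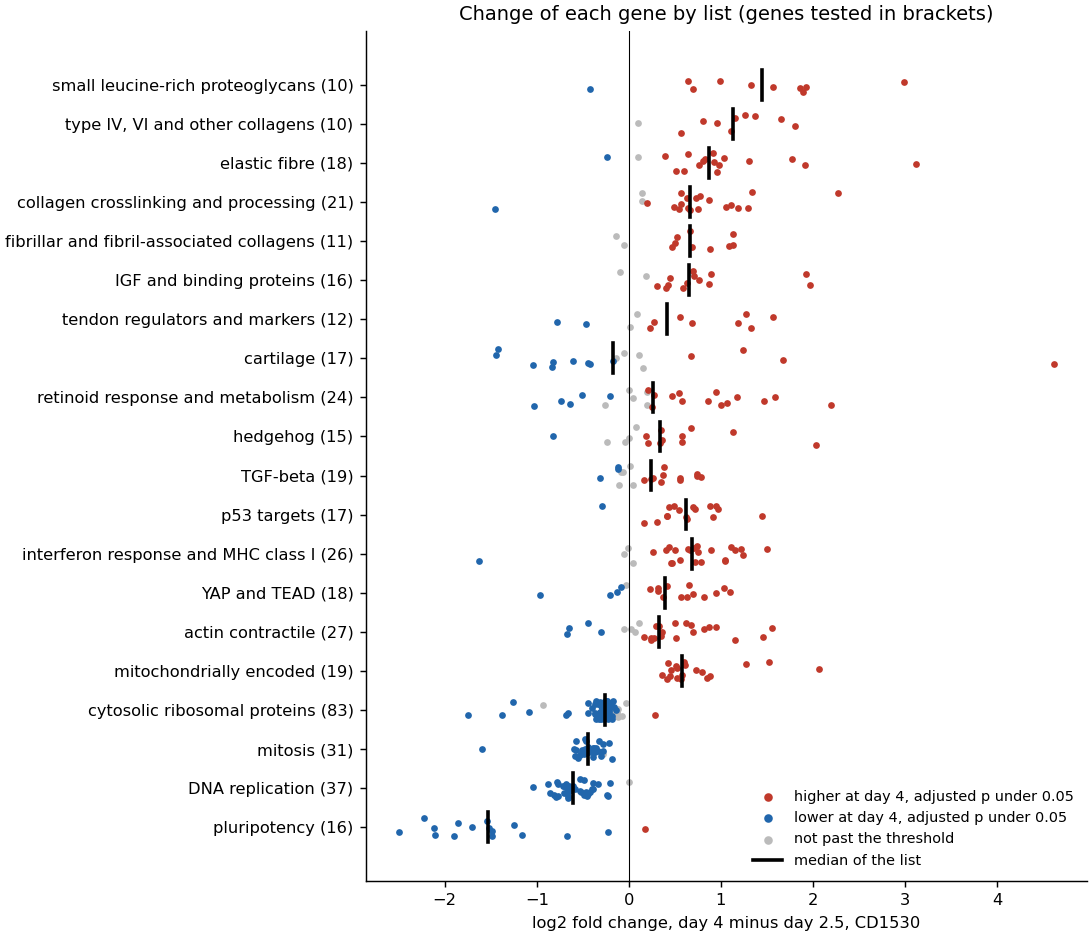
Log2 fold change from day 2.5 to day 4 in CD1530 for every tested gene of 20 lists (number of genes in brackets), red where higher and blue where lower at an adjusted p under 0.05 and grey otherwise, with the median as a black bar. The 5 uppermost lists, all of matrix, lie almost entirely to the right of 0, and DNA replication, mitosis and pluripotency lie to the left.

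Promoter sequences were read for the lists that moved as blocks, to show which short motifs their members carry. RefSeq promoters (GRCm38.p6, 250 bases before to 50 after the start) matched 11576 of the 17120 genes by symbol, and motifs were searched on both strands. The interferon-stimulated response element, searched as 2 copies of GAAA with any 2 bases between them, was found in 12 of 23 promoters of the interferon list (52.2%) against 2.98% of all 11576. It was in 6.06% of the promoters of genes past 1.5-fold higher and in 2.14% of those lower. The genes of this list are known for that element, so the share describes them and is no finding about the interval. Isg15 (239 ± 7.62 to 402 ± 4.68 CPM, 0.75 ± 0.063), a ubiquitin-like antiviral protein, and Ifit3 are shown because both hold several copies, in capitals, which overlap in Isg15. Each line gives bases upstream of the start, read 5′ to 3′ on the gene's strand.
Isg15, chr4:156200819-156200998, minus strand: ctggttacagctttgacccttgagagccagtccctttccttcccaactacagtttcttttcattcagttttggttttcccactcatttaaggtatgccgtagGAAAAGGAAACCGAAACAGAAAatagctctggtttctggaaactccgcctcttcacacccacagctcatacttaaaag
Ifit3, chr19:34583349-34583528, plus strand: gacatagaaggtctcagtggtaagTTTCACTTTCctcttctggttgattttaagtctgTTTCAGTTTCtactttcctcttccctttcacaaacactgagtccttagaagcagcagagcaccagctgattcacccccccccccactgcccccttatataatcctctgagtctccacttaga

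The E2F motif was searched as TTTGGCGC and as TTTCGCGC, which can overlap on opposite strands. The first was in 5 of 29 DNA replication promoters (17.2%) against 0.933% of all, and the second in 4 (13.8%) against 0.57%. Among genes past 1.5-fold lower the shares were 1.37% and 0.611%, and among those higher 0.673% and 0%. The replication list was chosen by function, so its shares describe it and are no finding about the interval. Mcm5 (271, 275 and 279 CPM at day 2.5 and 159, 159 and 165 CPM at day 4, -0.77 ± 0.032) and Mcm6 (412, 408 and 407 CPM at day 2.5 and 311, 311 and 309 CPM at day 4, -0.40 ± 0.03), subunits of the replicative helicase, hold both and were both lower in every D4 library. All 8 promoters shown for these motifs were picked for holding the motif after the values were seen. Capitals mark either motif, on either strand.
Mcm5, chr8:75109329-75109508, plus strand: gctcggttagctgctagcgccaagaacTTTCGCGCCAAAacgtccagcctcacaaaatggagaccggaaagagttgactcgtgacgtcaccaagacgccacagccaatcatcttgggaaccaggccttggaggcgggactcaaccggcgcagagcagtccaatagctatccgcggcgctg
Mcm6, chr1:128359706-128359885, minus strand: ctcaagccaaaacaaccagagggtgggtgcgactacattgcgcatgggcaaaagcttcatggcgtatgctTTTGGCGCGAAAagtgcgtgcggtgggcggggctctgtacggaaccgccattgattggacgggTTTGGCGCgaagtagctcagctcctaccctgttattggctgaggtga

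The CCAAT box, CCAAT, bound by NF-Y, was in 19 of 25 mitosis promoters (76.0%) and 18 of 29 replication promoters (62.1%) against 38.9% of all. Other lists had 83.3% (sterol and fatty acid synthesis), 70.8% (endoplasmic reticulum) and 31.1% (ribosomal proteins). Among genes past 1.5-fold the shares were 35.5% higher and 41.1% lower, close to that of all promoters. The shares describe the lists and are no finding about the interval. Cdc20 (235, 238 and 232 CPM at day 2.5 and 155, 157 and 154 CPM at day 4, -0.59 ± 0.036), which activates the anaphase ubiquitin ligase, and Ccnb2, a mitotic cyclin (95.5 ± 6.6 to 69.1 ± 0.996 CPM, -0.47 ± 0.05), are shown with the box in capitals. The Cdc20 line ends where the GENCODE gene begins, just short of the RefSeq start, and leaves out a further CCAAT that lies between them.
Cdc20, chr4:118437353-118437523, minus strand: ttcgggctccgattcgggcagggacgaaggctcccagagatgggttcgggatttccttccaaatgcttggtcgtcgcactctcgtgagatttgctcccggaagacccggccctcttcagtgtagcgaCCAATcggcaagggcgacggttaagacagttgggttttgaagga
Ccnb2, chr9:70421555-70421734, minus strand: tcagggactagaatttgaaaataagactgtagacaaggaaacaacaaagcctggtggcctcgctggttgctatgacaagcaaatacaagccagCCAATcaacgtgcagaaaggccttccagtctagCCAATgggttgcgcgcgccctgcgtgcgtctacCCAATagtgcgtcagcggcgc

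The TEAD motif GGAATG was in 11 of 15 promoters of the YAP and TEAD list (73.3%) and 11 of 24 of the contractile list (45.8%), against 12.3% of all. The first list was chosen for known ties to YAP and TEAD, so its share describes it and is no finding about the interval. Among genes past 1.5-fold the shares were 14.1% higher and 12.2% lower, close to that of all promoters. Ccn1 and Crim1, a membrane protein with growth factor binding domains (78.5 ± 2.95 to 168 ± 1.69 CPM, 1.10 ± 0.065), each hold a copy in the bases shown, in capitals, on either strand. A match describes the letters and is no evidence of binding.
Ccn1, chr3:145649986-145650165, minus strand: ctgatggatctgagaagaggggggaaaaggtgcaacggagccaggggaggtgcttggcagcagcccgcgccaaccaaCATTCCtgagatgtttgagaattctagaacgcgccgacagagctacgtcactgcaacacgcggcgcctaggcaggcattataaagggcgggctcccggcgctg
Crim1, chr17:78200068-78200247, plus strand: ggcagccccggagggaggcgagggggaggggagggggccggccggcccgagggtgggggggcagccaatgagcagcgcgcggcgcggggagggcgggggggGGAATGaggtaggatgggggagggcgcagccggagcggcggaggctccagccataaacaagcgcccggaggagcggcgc

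Markers of other cell types moved in different directions, and their part in the results above was not tested. Over all genes 27.4% were called higher and 29.9% lower, shares to hold beside the counts that follow. The summed level of 13 endothelial markers was 461 to 467 CPM at day 2.5 and 297 to 317 CPM at day 4, and 10 of them fell, among them Pecam1 (82.2 ± 2.7 to 27.6 ± 2.84 CPM, -1.57 ± 0.056). The 10 blood markers summed to 77.8 to 79.9 CPM at day 2.5 and 50.8 to 56.3 CPM at day 4, and 7 fell, with Hba-x at 10.3 ± 0.653 to 2.15 ± 0.361 CPM. The 10 muscle markers summed to 35.6 to 36.2 CPM at day 2.5 and 25.3 to 29.1 CPM at day 4, 6 of them lower, and Myog had at most 4 counts in a D4 library. The 14 endoderm and epithelium markers summed to 419 to 432 CPM at day 2.5 and 395 to 410.2 CPM at day 4. Of these, 4 rose, Foxa1 the furthest (23.5, 24.5 and 22.1 CPM at day 2.5 and 79, 81.2 and 78.9 CPM at day 4, 1.77 ± 0.076), and 4 fell, Epcam and Cdh1 among them (-1.02 ± 0.044 and -0.90 ± 0.043). Both counts (28.6% each) lie near the shares over all genes. The 9 markers of feeder fibroblasts and kidney summed to 101 to 104 CPM at day 2.5 and 90.6 to 94.4 CPM at day 4, with 2 higher (22.2%) and 3 lower (33.3%), also near those shares. The 6 neural crest and glia markers summed to 153 to 156 CPM at day 2.5 and 175 to 176 CPM at day 4, with 1 higher and 1 lower.

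Neural markers split into 8 that rose and 4 that fell of 15, or 53.3% and 26.7% beside 27.4% and 29.9% of all genes. Their sum was 339 to 346 CPM at day 2.5 and 225 to 238 CPM at day 4. The fallers carry most of that sum. Sox2, of neural and pluripotent cells, was at 174, 175 and 175 CPM at day 2.5 and 71.8, 81.9 and 79.9 CPM at day 4 (log2 fold change -1.17 ± 0.044, adjusted p = 2.01e-24), and Stmn2, a tubulin-binding protein, went from 31.9 ± 1.18 to 11.5 ± 0.344 CPM (-1.47 ± 0.073). Those that rose stood between 1.90 CPM (Isl1) and 24.8 CPM (Sox3) at D4. Neurog2 went from 0.153 ± 0.126 to 2.64 ± 0.257 CPM (4.09 ± 0.46), Isl1 from 0.47 ± 0.138 to 1.9 ± 0.183 CPM (2.01 ± 0.31) and Elavl4 from 2.7 ± 0.564 to 7.5 ± 0.256 CPM (1.48 ± 0.19). For 9 of the 15 the change was more positive in CD1530 than in AGN 193109, beside 12.7% of all genes.

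Several of the largest rises of all genes were of the same kind. Dcx, a microtubule protein of migrating neurons, was at 1.12, 0.585 and 0.295 CPM at day 2.5 and 6.47, 6.49 and 5.23 CPM at day 4 (log2 fold change 3.17 ± 0.30, adjusted p = 1.16e-11). Pou3f2, a neural POU factor, was at 1.06, 0.958 and 1.3 CPM at day 2.5 and 9.6, 7.59 and 10.5 CPM at day 4 (log2 fold change 3.06 ± 0.21, adjusted p = 9.64e-16). The days did not overlap for either gene. Alk, a receptor kinase with a role in neurons, rose from 0.691 ± 0.0761 to 6.69 ± 0.582 CPM (3.27 ± 0.26) and Cntn2, an axonal adhesion protein, from 2.34 ± 0.44 to 16.1 ± 0.507 CPM (2.79 ± 0.19). The natriuretic peptide clearance receptor Npr3, of connective tissue and endothelium, was a more abundant gene of that group, at 31.7, 33.9 and 33.8 CPM at day 2.5 and 265, 259 and 271 CPM at day 4 (log2 fold change 3.00 ± 0.065, adjusted p = 2.29e-32).

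At the counting floor, 7 genes went from at most 3 counts in every D2.5 library to at least 20 in every D4 library, and 0 went the other way. Dbx1, a homeobox factor of the neural tube, had 0 counts in the D2.5 libraries and 44 to 61 at D4, at least 16.6-fold higher against a floor of 3 counts per library. Nhlh1, a bHLH factor of neurons, was at least 10.3-fold higher, the neuronal transcript Mir124-2hg at least 9.04-fold, and Ros1, a receptor kinase, at least 9.15-fold. The others were Gzmd, a granzyme, Olfr1033, an olfactory receptor, and the noncoding D930028M14Rik, with bounds of 15, 11.6 and 11.2. The call of Gzmd was lost in the DESeq2 Wald test (adjusted p = 0.54). All 7 genes stayed below the level of 4 CPM.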

How the data were processed

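Total RNA was extracted with the RNeasy Plus Universal kit, made into libraries with NEBNext Ultra and sequenced as paired reads. The authors aligned reads to GRCm38 with STAR and deposited raw counts per gene, made with featureCounts, in 1 table. Annotation, strand setting and treatment of multi-mapping reads are not given in the sources used here, so antisense and duplicated genes may share counts. All 17120 identifiers matched GENCODE M21, which gave names and coordinates.

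The counts were fitted with edgeR 4.0.16 (R 4.3.3) on all 33 libraries with 11 group means, TMM scaling and robust quasi-likelihood tests, since the groups then share 1 estimate of the spread. The contrasts were D4 minus D2.5 in CD1530, the same in AGN 193109, and their difference, with p-values adjusted by Benjamini-Hochberg over all genes. The 1.5-fold calls used the glmTreat test. The fit was tested on simulated data. The alternatives were DESeq2 1.42.0, other scalings and filters, other tests, thinned counts, the replicate number as a block, the compared groups alone, and leaving out each library.

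Members and gene lists were chosen with earlier results of these data known. Genes named are the 12 largest rises and falls (mean of at least 50 counts, days not overlapping, no predicted genes), the 10 largest CPM gains and losses, up to 6 called members per list with its most abundant and its defining genes, the 8 largest ligand differences each way, and genes leaving the floor of 3 counts. No set test was run. Values of a few list members are not reported here.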

Additional observations from a re-analysis of the deposited data

Results flagged for a closer look

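The change from D2.5 to D4 differed between CD1530 and AGN 193109 for 4591 genes, by edgeR's test of the difference between the ligands' changes (given below as log2, CD1530 minus AGN). Among genes called in CD1530, and with the count and overlap criteria for named genes, the 8 most positive differences were led by neuronal genes. Nhlh2, a bHLH factor of neurons, had 3.76, with 1.17, 0.851 and 0.59 CPM at day 2.5 and 4.7, 5.72 and 4.78 CPM at day 4 in CD1530 and AGN means of 1.01 to 0.405 CPM. Pou3f2 had 3.56, Dcx 2.91 and Elavl4 2.80, their AGN means going from 0.265 to 0.201 CPM, 0.436 to 0.526 CPM and 1.07 to 0.447 CPM. Pik3ap1, a signalling adaptor, had 2.78 and Slc26a7, an anion exchanger, 2.62. Rhox1 (2.47) fell in both series, and Dazl (2.43), a germ cell RNA-binding protein, went from 36.4 ± 1.45 to 40.3 ± 1.51 CPM in CD1530 beside AGN means of 12.6 to 2.57 CPM. The call of Dazl in CD1530 was lost under 7 of 16 alternatives.

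The 8 most negative differences were Acan (-3.34), Wnt8a (-3.17), Aqp1 (-3.15), Gja4 (-3.15), Trim67 (-2.85), Col9a1 (-2.82), Gpr20 (-2.65) and Ncmap (-2.47). Each fell in CD1530 and had a positive fold change in AGN 193109. Wnt8a, a ligand of early mesoderm, was at 5.86, 6.38 and 5.13 CPM at day 2.5 and 1.01, 0.936 and 1.18 CPM at day 4 in CD1530. The water channel Aqp1 was at 3.8, 3.4 and 4.13 CPM at day 2.5 and 2.78, 1.82 and 2.25 CPM at day 4, beside AGN means of 16.1 to 86.9 CPM. The call of Gpr20 in CD1530 was lost under 5 of 16 alternatives. Over all genes, 452 were called in opposite directions under the ligands with the difference called, 217 higher in CD1530 and 235 lower.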

How the results depend on the processing

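The 6 counts of calls (either direction, higher, lower, past 1.5-fold higher and lower, and differing between ligands) all stayed within 1.5 times their value under every alternative run, with no filter included. The called genes numbered 9480 to 10620 in place of 9806, the lowest with a filter of 1 CPM and the highest when the 6 libraries were fitted alone. Leaving out 1 library gave 9068 to 9147 calls, 4331 to 4401 higher, 4709 to 4752 lower, 912 to 945 and 879 to 934 past 1.5-fold, and 4028 to 4265 differences between ligands. Of 376 called genes among the 383 named by the rule, 345 kept direction and call under all 16 alternatives. Directions turned for 4 genes that were not called. Spp1 (-0.01) had 0.0164 with DESeq2 size factors, 0.01637 in the DESeq2 Wald test, 0.0078 with the 1 CPM filter, 0.01134 in the compared groups alone, and -0.0378 to 0.005572 with 1 library left out. With totals alone Flna had -0.02131, Calr -0.05778 and Lyz2 -0.04809, and Lyz2 had -0.02289 to 0.123 with 1 library left out. The replicate numbers are shared by the groups but same-numbered libraries did not deviate together (correlations -0.0142, 0.00185 and 0.000386 over 12108 genes). With the number as a block (replicate block), 9750 genes were called, 4654 higher and 5096 lower, and among the named genes the call of Dazl alone was lost. Precision rests on 3 libraries a day and 17.1 to 21.3 M counts each.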

Other observations

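Axon guidance and neurotrophin genes, which also act in mesenchyme, rose in 25 of 28 cases and fell in 2, with a median of 0.53. Ntrk3, a neurotrophin receptor, was at 7.99, 8.57 and 7.55 CPM at day 2.5 and 25.9, 23.3 and 25.3 CPM at day 4 (log2 fold change 1.63 ± 0.12, adjusted p = 1.94e-15), Robo2, a receptor for Slit proteins, went from 15.6 ± 1.24 to 42.6 ± 3.85 CPM (1.45 ± 0.10) and the semaphorin Sema3d from 2.95 ± 0.36 to 7.92 ± 0.799 CPM (1.42 ± 0.18). Sema3e and Sema3a were the members that fell. Immediate early genes had 13 higher and 3 lower of 20. Fosb, an AP-1 subunit, was at 1.17, 1.44 and 1.36 CPM at day 2.5 and 6.82, 7.43 and 5.68 CPM at day 4 (log2 fold change 2.32 ± 0.21, adjusted p = 1.42e-12) and Fos went from 7.74 ± 0.374 to 20.8 ± 1.18 CPM (1.43 ± 0.095), whereas Egr3 fell from 18.1 ± 0.712 to 10.5 ± 0.158 CPM (-0.78 ± 0.083). The change was more positive in CD1530 than in AGN 193109 for 10 of these 20 genes and more negative for 1. Over all genes the shares were 12.7% and 14.1%.

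Metabolic and signalling lists were less uniform, and over all genes 27.4% were higher and 29.9% lower. Sterol and fatty acid synthesis had 18 of 28 genes lower and 3 higher, led by the elongase Elovl6 (170.4 ± 2.74 to 100.1 ± 6.55 CPM, -0.77 ± 0.057) and Lss, which closes the sterol rings (-0.63 ± 0.04). Glycolysis and hypoxia genes were 16 higher and 5 lower of 28, with Vegfa, the vascular growth factor, at 0.74 ± 0.048. In the endoplasmic reticulum list 12 of 27 rose (44.4%) and 8 fell (29.6%, near the share of all genes). Creb3l1, a regulator of collagen secretion, rose (0.89 ± 0.054), and Chac1, Asns and Trib3, targets of the stress factor Atf4, fell (-1.10 ± 0.11, -0.80 ± 0.037 and -0.50 ± 0.062). Of 17 Notch genes 6 rose (35.3%) and 7 fell (41.2%), among the latter the endothelial ligand Dll4 (-1.35 ± 0.13) and the target Hey1 (-1.25 ± 0.082). In the osteogenic list Runx2, the bone factor, rose (9.56 ± 1.2 to 13.6 ± 0.727 CPM, 0.50 ± 0.12) and Alpl, the bone phosphatase, fell (173 ± 2.46 to 64.3 ± 3.83 CPM, -1.42 ± 0.044), with 5 higher and 2 lower of 12 (41.7% and 16.7%). Hox genes were 13 higher and 2 lower of 38, beside 27.4% and 29.9% of all genes, or 7 higher when totals alone set the scale.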
